A study of Drosophila melanogaster and Drosophila mauritiana and Drosophila melanogaster x Drosophila mauritiana with 7 samples.

Results

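The gypsy, Gypsy5 and Gypsy10 endogenous retroviruses were followed through the small RNAs of the testis in Drosophila melanogaster, in Drosophila mauritiana and in their F1 hybrid. Their small RNAs were the sequences of 23 to 30 nt whose repeat annotation names gypsy, Gypsy5 or Gypsy10, with the internal part (I-int), which holds the coding regions, kept apart from the long terminal repeat (LTR), which flanks it. The names found 7 of 212 repeats and 15557 of 350729 distinct sequences. The results rest on 5 of these repeats (Gypsy_I-int, Gypsy_LTR, Gypsy5_I-int, Gypsy10_I-int and Gypsy10_LTR), which held 14978 sequences. Gypsy5_LTR and Gypsy_DS also met the naming rule, and their values are given beside the others.

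RNA came from testes of adult flies 0 to 5 days old, and RNAs of 19 to 29 nt were cut from a gel. The D. melanogaster parent carried P{}Hmr1, an allele of Hybrid male rescue, the D. mauritiana parent was wild type, and the F1 hybrids came from these parents. Each group was 1 library, so differences could not be set against the spread between replicates, and no p-values were computed. Of the 7 libraries of the series, 3 small RNA libraries are in the table used here.

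The transposon table held 441146 reads for Hmr1, 175982 for the hybrid and 133204 for D. mauritiana. These totals are not the depth of the libraries, so levels are shares of the transposon reads of a library, written as reads per 1000000. The smallest count read as present, 3 reads, stood for 6.80 per 1000000 in Hmr1, 17.0 in the hybrid and 22.5 in D. mauritiana. Intervals are exact at 95% and cover counting error only, not the spread between libraries. Several reads can stem from 1 molecule, so the counting error itself can be larger than the intervals show. No marker gene of a testis cell type was among the values used, and in whole testes a change in cell make-up and a change in RNA per cell cannot be told apart.

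gypsy is a retrovirus of the fly genome, with gag, pol and env genes between its LTRs, and its particles are known from the somatic follicle cells of the ovary. PIWI proteins loaded with piRNAs silence such elements. In ovarian somatic cells these piRNAs come mainly from flamenco, a locus on the X chromosome filled with old fragments of gypsy-type elements, mostly in the orientation that gives antisense RNA. In germ cells, piRNAs can also be amplified by ping-pong, in which an antisense piRNA guides the cut of a sense transcript and the cut end becomes a sense piRNA. The partners of a ping-pong pair overlap by their first 10 nt, a first U in the RNA (T in the reads) is typical of primary piRNAs, and an A at base 10 is typical of their partners. The orientation of an element is not given in the table and was rebuilt from the reads.

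The sequences below are 8 examples, chosen after their counts were seen among the most abundant that could be placed on the genome. They show reads that match single copies on the D. melanogaster build. Each had 1 hit on build dm6, and capitals mark base 1 and base 10. The first 3 lie in a Gypsy5 copy on the X chromosome, the next pair in flamenco, and the last 3 in heterochromatic gypsy copies on chromosome arm 3L.
Gypsy5 at X:11198621-11198645, plus strand: TatgttcttGtaaggacgtcgagaa
Gypsy5 at X:11197353-11197378, plus strand: TttgagggtTtgacaaatgtcgcatt
Gypsy5 at X:11198042-11198068, plus strand: TtccaaataAgtatggtcgaaaatatt
gypsy at X:21769418-21769443, plus strand: TacatttttCagctcccttacgggcc
gypsy at X:21769042-21769066, plus strand: TatcggacgAgctatggctgcagtc
gypsy at 3L:26154178-26154204, minus strand: TaaaccaatGtttaggaccacaccagc
gypsy at 3L:26512700-26512723, minus strand: TggcgtcttTgtcccgaataacgc
gypsy at 3L:26145686-26145710, minus strand: TgcaaggttGagctttaccccggcc

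The first Gypsy5 sequence had 42 hybrid reads, 13 Hmr1 reads and 0 in D. mauritiana, and the second had 26, 6 and 1. The third had 15 hybrid reads, 5 D. mauritiana reads and 0 in Hmr1. The hybrid thus held Gypsy5 sequences seen in either parent alone. The flamenco sequences had 10 and 7 hybrid reads and 2 and 3 Hmr1 reads, with 0 for D. mauritiana. The first gypsy sequence on 3L had 13 reads in the hybrid and 2 in each parent. The other 2 on 3L had 14 and 12 reads in D. mauritiana and 0 in both other libraries.

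The small RNAs of these retroviruses took up a far larger share of transposon reads in the hybrid than in either parent. The 5 repeats together held 19212 reads in the hybrid, or 10.9% (10.8 to 11.1) of transposon reads. They held 4627 reads in Hmr1, or 1.05% (1.02 to 1.08), and 3742 in D. mauritiana, or 2.81% (2.72 to 2.90). Their share in the hybrid was 10.4-fold that in Hmr1 (10.1 to 10.8) and 3.89-fold that in D. mauritiana (3.75 to 4.03). It was 5.66 times the mean of both parents. The sequences are spread thinly: the most abundant had 42 reads, and 69.6% of the distinct sequences in the hybrid had 1 read.

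Gypsy5_I-int was the most abundant of them in the hybrid, at 41885 per 1000000 (40954 to 42831), while Hmr1 stood at 3534 (3361 to 3714) and D. mauritiana at 4129 (3792 to 4488). Among repeats with reads it ranked at position 5 of 209 for the hybrid, 60 of 203 for Hmr1 and 64 of 191 for D. mauritiana. Both parents stood close together and the hybrid stood above them, 11.9-fold (11.2 to 12.5) over Hmr1 and 10.1-fold (9.30 to 11.1) over D. mauritiana. Its LTR was also highest in the hybrid, with 739 hybrid, 219 Hmr1 and 46 D. mauritiana reads, and ratios of 8.46 and 12.2. The order of the parents differed. Hmr1 stood at 1.44 (1.04 to 2.02) of D. mauritiana for the LTR and at 0.856 (0.776 to 0.945) for the internal part.

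Gypsy_I-int stood at 35271 per 1000000 (34414 to 36143) in the hybrid, at 14144 (13516 to 14792) in D. mauritiana and at 3992 (3808 to 4182) in Hmr1. The order of the libraries was hybrid, D. mauritiana, Hmr1, with no overlap of the counting intervals. The hybrid was 8.84-fold (8.38 to 9.32) over Hmr1 and 2.49-fold (2.37 to 2.63) over D. mauritiana. Gypsy_LTR gave another order of the parents, with the hybrid at 10836 per 1000000 (10358 to 11331), Hmr1 at 1115 (1019 to 1218) and D. mauritiana at 563 (443 to 706), though the parents changed places with single-hit sequences (log2 ratio of Hmr1 to D. mauritiana -2.08) and stood at -0.040 with reads divided by genomic hits. Its ratio to D. mauritiana, 19.2 (15.3 to 24.6), was the highest of the 5, and its ratio to Hmr1 was 9.72 (8.79 to 10.8). The LTR thus made up 23.5% of gypsy reads in the hybrid and 21.8% in Hmr1, but 3.83% (3.02 to 4.78) in D. mauritiana. That last share rests on 75 reads, 56% of them from 10 sequences. Reads of D. mauritiana copies that diverge from the D. melanogaster build may also have been lost.

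Gypsy10_I-int stood at 17968 per 1000000 (17352 to 18599) in the hybrid, at 7785 (7320 to 8272) in D. mauritiana and at 1532 (1419 to 1652) in Hmr1. Its LTR, at 3211, 1471 and 315, kept the same order of libraries. Over Hmr1 the hybrid was 11.7-fold higher for the internal part and 10.2-fold for the LTR, and over D. mauritiana it was 2.31-fold and 2.18-fold higher. The LTR share of Gypsy10 was 15.2% for the hybrid, 17.1% for Hmr1 and 15.9% for D. mauritiana, with overlapping intervals. Gypsy_DS was rare, with 30 hybrid, 35 Hmr1 and 11 D. mauritiana reads, and a ratio of hybrid to Hmr1 of 2.15.

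**Figure D1:**
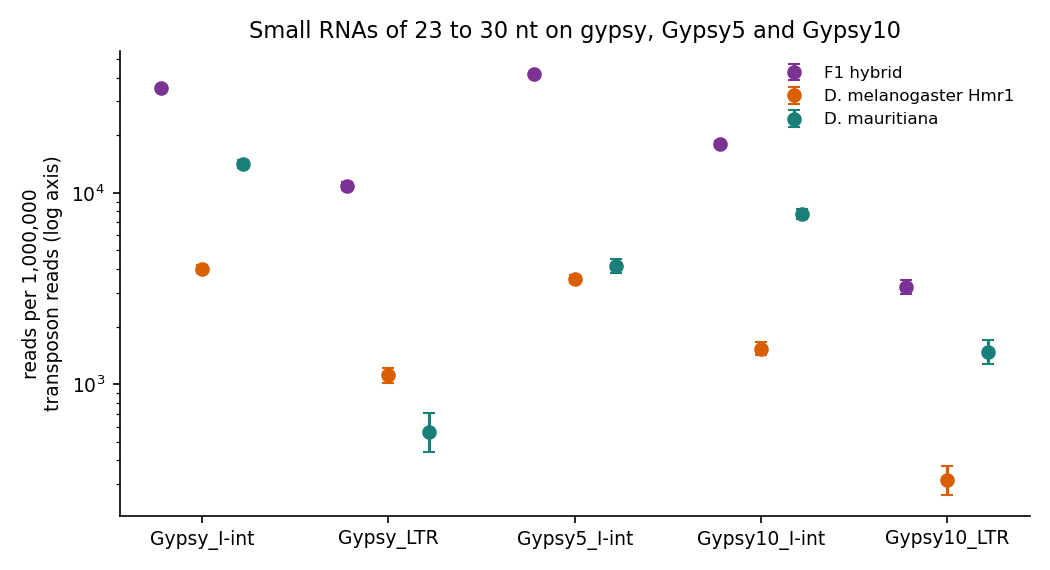
Reads of 23 to 30 nt on each repeat per 1000000 transposon reads (log axis) in the hybrid, Hmr1 and D. mauritiana, 1 library each, with exact 95% counting intervals. The hybrid is highest for each of the 5 repeats, and Gypsy_LTR is the one repeat of the 5 with D. mauritiana lowest. With single-hit sequences (17 Hmr1 and 20 D. mauritiana reads) this order of the parents reversed. With reads divided by genomic hits the parents were about equal (log2 ratio of Hmr1 to D. mauritiana -0.040).

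Over all repeats, as many were at least 2-fold lower as higher in the hybrid than in Hmr1. All 5 repeats were at least 2-fold higher in the hybrid than in Hmr1, where 34.4% of the 151 repeats measured (at least 100 reads in either library) were that much higher and 34.4% that much lower. All 5 were also at least 2-fold higher in the hybrid than in D. mauritiana, against 41.3% of 155 repeats higher and 40% lower. None of the 5 was at least 2-fold higher in Hmr1 than in D. mauritiana, against 31.9% of 160, and Gypsy_I-int, Gypsy10_I-int and Gypsy10_LTR were at least 2-fold lower there (log2 ratios of -1.82, -2.34 and -2.22), against 38.8%. Both parental ratios use the same hybrid library. The 5 repeats lay above both parents beyond counting error, which held for 34.5% of all repeats, and with single-hit sequences it held for 1 of the 5.

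In a list of other gypsy-type repeats, chosen with earlier results of these data known, most of those listed had the same direction in the hybrid. In this list of 44 such repeats (ZAM, Idefix, gtwin, Tirant, 297, 17.6, Quasimodo, Tabor, rover, Stalker, Gypsy1 to Gypsy4, Gypsy6, Accord, Burdock and springer), 33 of 41 measured were at least 2-fold higher in the hybrid than in Hmr1 and 0 were that much lower. Their median log2 ratio was 2.13, against -0.15 over all repeats. Against D. mauritiana 30 of 42 were higher and 3 lower, with a median of 2.51 against 0.23 over all repeats. Over all other LTR/Gypsy repeats, those of the list included, 39 of 78 were higher and 20 lower than in Hmr1, with a median of 1.02. The list supplied 33 of these 39, and all 20 lower repeats lay outside it. Between the parents the list was split, with 10 of 37 higher in Hmr1 and 9 lower. The log2 ratios of Gypsy5_I-int, 3.57 and 3.34, were nearest to those of TIRANT_I-int, 3.35 and 3.18, by Euclidean distance over 172 repeats (0.27). Gypsy_I-int, at 3.14 and 1.32, was nearest to BURDOCK_LTR, which had 3.19 over Hmr1, and to DM412, at 3.11 and 1.27. These likenesses rest on 3 libraries.

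**Figure D2:**
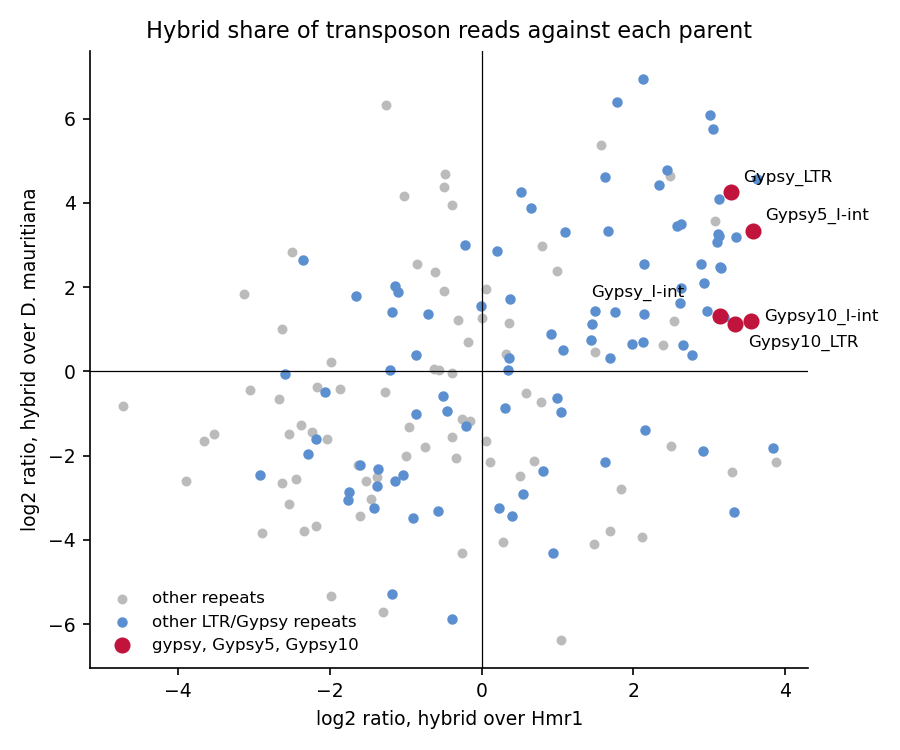
Log2 ratio of the share of transposon reads in the hybrid over Hmr1 (horizontal) and over D. mauritiana (vertical), 1 point per repeat. Gypsy5_I-int and Gypsy_LTR lie in the upper right, Gypsy_I-int, Gypsy10_I-int and Gypsy10_LTR lie as far right with vertical values of 1.12 to 1.32, and both axes share the hybrid library.

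The size of these ratios and some of the calls depended on what was counted. With each distinct sequence counted once, the summed log2 ratio to Hmr1 was 2.35 in place of 3.38, and relative to transposon reads outside the LTR/Gypsy class it was 4.73. With sequences of 1 genomic hit alone, Gypsy5_I-int was the only one of the 5 still at least 2-fold higher in the hybrid than in D. mauritiana, and Gypsy_I-int was at -0.21 and Gypsy_LTR at -0.41 on the log2 scale. Over D. mauritiana, 2 of the 5 were at least 2-fold higher with each sequence counted once, and 3 with reads divided by genomic hits. The single-hit setting left Gypsy_LTR with 27 hybrid, 17 Hmr1 and 20 D. mauritiana reads.

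Nearly all reads of the 3 elements ran antisense to the element in the hybrid. The sense direction was taken as that of the longest open reading frame rebuilt from the reads, and other sequences were oriented by shared stretches of 15 nt. For gypsy, 6 of 7348 oriented reads in the hybrid were sense, or 0.0817% (0.0300 to 0.178). Sense reads were 25 of 2031 or 1.23% (0.798 to 1.81) for Hmr1, and 96 of 1512 or 6.35% (5.17 to 7.70) for D. mauritiana. The shares rise from hybrid to Hmr1 to D. mauritiana with no overlap of the counting intervals. Gypsy10 gave the same order, with 3 of 3575 reads or 0.0839% (0.0173 to 0.245) for the hybrid, 1.41% (0.708 to 2.52) for Hmr1 and 6.11% (4.79 to 7.65) for D. mauritiana. Gypsy5 was antisense in every library: its sense share was 0.0759% for the hybrid, 0.659% for Hmr1 and 0.377% (0.0456 to 1.35) for D. mauritiana.

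The same bias was found for a part of the other repeats. In the hybrid the minor strand held under 1% of reads for 6 of 6 measured repeats of the 3 elements, Gypsy5_LTR included, against 20% of 115 repeats. In Hmr1 this held for 1 of 6, against 3.88% of 129 repeats, and in D. mauritiana for 1 of 4, against 3.37% of 89. The repeat in both parents was Gypsy5_I-int. Other LTR/Gypsy repeats shared it in the hybrid, where 16 of 63 were under 1%, among them TIRANT_I-int at 0.0812% and ZAM_I-int at 0.158%. Among these other LTR/Gypsy repeats the median minor-strand share was 3.65% for the hybrid, 21.8% for Hmr1 and 11.1% for D. mauritiana, and outside that class it was 30.9%, 22.9% and 20.7%. Joins of 12 nt in place of 15 raised the minor-strand share of gypsy to 24.7% (hybrid), 27.0% (Hmr1) and 45.4% (D. mauritiana). They gave 9 contradictory joins, where 15 nt gave 0. For Gypsy10 the 12 nt joins gave 0.138%, 1.41% and 6.20%, with 15 contradictory joins. What raised the gypsy shares was not tested. The listed genomic strands at single sites, which need no joining, are given next.

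At the Gypsy5 copy on X:11195438-11201368 (build dm6), 6405 of 6407 hybrid reads, 1262 of 1262 Hmr1 reads and 424 of 424 D. mauritiana reads lay on the plus strand, opposite a frame of 707 codons. The site overlaps no annotated gene and lies 1947 nt from the long noncoding RNA gene lncRNA:CR44765 and 880 nt from CG11106. A second Gypsy5 copy, at 3L:15295816-15298201, had 1095 antisense and 3 sense reads in the hybrid. At the gypsy copy on 3L:24463656-24470543, opposite a frame of 261 codons, 3138 of 3139 hybrid reads, 891 of 891 Hmr1 reads and 277 of 289 D. mauritiana reads were antisense. In D. mauritiana 26.3% of the reads there started within 1 antisense stretch of 200 nt, against 5.51% in the hybrid and 6.62% in Hmr1. Reads with 1 genomic hit were 4024 of the 6407 hybrid reads at the Gypsy5 copy on X, but 23 at the Gypsy5 copy on 3L and 0 at this gypsy copy. Most reads at both 3L copies and nearly all of Gypsy10 match several places, so they cannot be assigned to these copies. As 1 place is listed per sequence, the gypsy copy on 3L held 289 of the 1959 gypsy reads of D. mauritiana. Its profile shows the reads listed there and not the whole element.

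**Figure D3:**
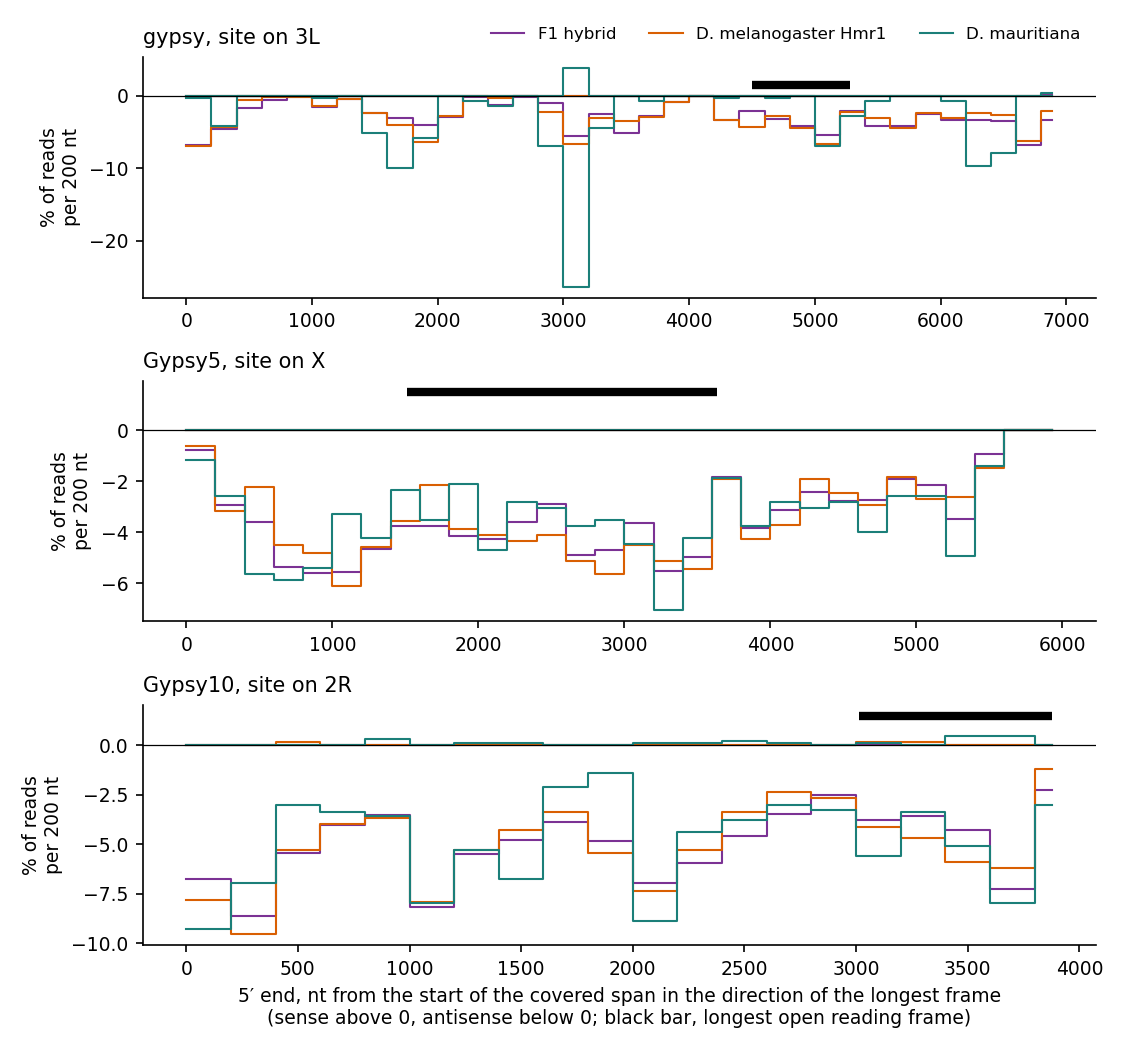
Position of 5′ ends along 1 copy of each element, in percent of that library's reads at the copy per 200 nt, with sense reads above 0 and antisense reads below. Hybrid and Hmr1 antisense reads cover the frame (black bar) and its flanks in the 3 elements. D. mauritiana gypsy has few listed reads over long stretches, also within the frame. It has 1 antisense peak of 26.3%, with sense reads at the same place. As 1 place is listed per sequence, this gypsy copy holds 289 of 1959 D. mauritiana and 3139 of 8114 hybrid gypsy reads.

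The sense reads of gypsy and Gypsy10 in D. mauritiana were paired with antisense reads as ping-pong partners are, and few antisense reads of the hybrid had such a partner. Of the antisense gypsy reads in D. mauritiana, 360 of 1416 or 25.4% (23.2 to 27.8) had a sense partner with a complementary first 10 nt. The counts were 4 of 2006 antisense reads for Hmr1, or 0.199%, and 2 of 7342 for the hybrid, or 0.0272%. These shares are bounded by how many sense reads there are to pair with, 6 for gypsy in the hybrid. Counted over the sense reads of gypsy and Gypsy10, 33.3% (7.49 to 70.1) of 9 hybrid reads had an antisense partner. The share was 50.6% (42.7 to 58.4) of 166 reads for D. mauritiana and 13.9% (4.67 to 29.5) of 36 for Hmr1. The hybrid interval overlaps both, and the Hmr1 interval lies below that of D. mauritiana. For Gypsy10 the antisense shares were 10.2% (8.48 to 12.2) for D. mauritiana, 0.652% for Hmr1 and 0.0280% for the hybrid. Gypsy5 had 0 of 529 in D. mauritiana, which allows up to 0.695% by the exact interval, 0.483% for Hmr1 and 0.0127% for the hybrid. Gypsy5 had 2 sense reads to pair with in D. mauritiana, so the absence of pairs there cannot be read as a trait of the element.

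A pair of examples from D. mauritiana, both placed in gypsy copies on 3L of the D. melanogaster build, shows the overlap. Capitals mark the first 10 nt, in which the partners are complementary. The first pair had 3 antisense reads and 1 sense read, and the second had 2 and 1.
antisense at 3L:26153649-26153672, minus strand: ATGATGTGTTggtgggatacaggg
sense at 3L:26153663-26153685, plus strand: AACACATCATcttacgcctcgac
antisense at 3L:26146610-26146635, minus strand: TGTAGACACTtttgggttcaggatat
sense at 3L:26146626-26146651, plus strand: AGTGTCTACAgtgttagatcgttcct

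Without use of the strand, 26.0% of Gypsy_I-int reads in D. mauritiana (490 reads) had a partner, where windows shifted by 1 to 6 nt gave 2.01%. With libraries thinned to 1761 reads the shares were 25.3% for D. mauritiana, 0.909% for Hmr1 and 0.0965% for the hybrid. Over the 5 repeats the excess over background, at 3742 reads per library, was 15.5 points for D. mauritiana, 0.159 for Hmr1 and -0.0946 for the hybrid. It rested partly on abundant sequences, since it was 6.40 points in D. mauritiana with each sequence counted once. Palindromic starts count as partners in this form of the measure.

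**Figure D4:**
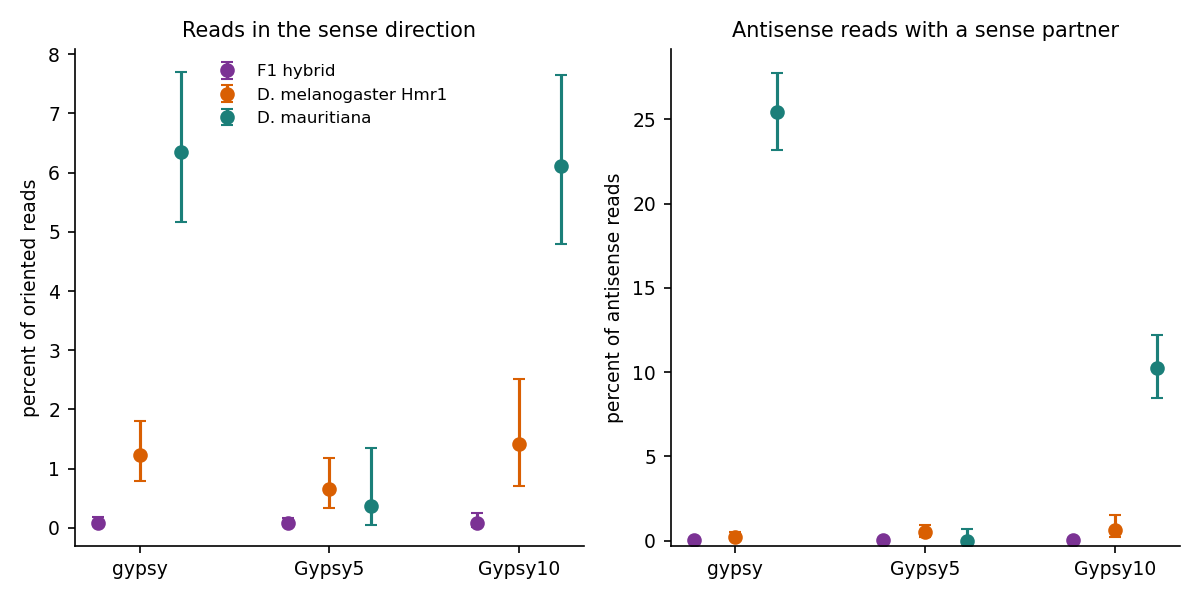
Left, percent of oriented reads that run in the sense direction, and right, percent of antisense reads with a sense read of complementary first 10 nt, by element and library with exact 95% counting intervals. D. mauritiana stands apart for gypsy and Gypsy10 (25.4% and 10.2% at right) and not for Gypsy5, for which it had 2 sense reads.

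Base composition followed the strand. Antisense reads of the 3 elements began with T in 74.7% (74.1 to 75.3) of hybrid, 80.5% (79.3 to 81.6) of Hmr1 and 73.9% (72.3 to 75.4) of D. mauritiana reads. On both strands together, T came first in 74.6%, 79.4% and 72.2% of reads of the 5 repeats. Among all transposon reads, also of both strands, T came first in 73.1%, 70.3% and 59.2%. The 168 sense reads of D. mauritiana began with T in 32.7% (25.7 to 40.4) and had A at base 10 in 36.3% (29.0 to 44.1), against 25.7% (24.1 to 27.3) in its antisense reads. Over all transposon reads of D. mauritiana, A was at base 10 in 28.1%. The hybrid held 15 sense reads in all, too few to give a base preference. The most frequent length of the 5 repeats was 26 nt in the hybrid and Hmr1 and 25 nt in D. mauritiana. Over all transposon reads it was 26, 25 and 24 nt, and for D. mauritiana 25 nt with each sequence counted once.

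Reads followed each other tail to head more often than at other distances in every library. Among 3′ ends followed on the same strand by a 5′ end within 20 nt, the next read began 1 nt downstream in 9.47% of pairs for the hybrid, 9.88% for Hmr1 and 13.3% for D. mauritiana. Other distances had a mean of 4.76%, 4.74% and 4.56%. The base after a 3′ end was T in 60.5% (59.8 to 61.2) of hybrid, 59.6% of Hmr1 and 54.2% of D. mauritiana reads, against 31.7%, 31.5% and 30.6% over the next bases. Phased cutting of a long precursor by Zucchini, the nuclease that makes primary piRNAs, is known to leave this pattern. The measure was added after the data were seen.

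On the D. melanogaster build, reads with 1 genomic hit were placed at other gypsy copies in D. mauritiana than in Hmr1 and the hybrid. Those of Gypsy5_I-int were placed on the X chromosome in 99.2% (hybrid), 98.4% (Hmr1) and 93.5% (D. mauritiana). Such reads made up 57.6% of Gypsy5_I-int reads for the hybrid, 57.2% for Hmr1 and 53.5% for D. mauritiana, and 9.97%, 7.84% and 21.4% of Gypsy_I-int reads. Of the single-hit Gypsy_I-int reads, 495 of 619 in the hybrid and 109 of 138 in Hmr1 were placed on the X chromosome. In D. mauritiana 32 of 403 or 7.94% were placed there. The largest share of D. mauritiana, 84.1%, was placed on 3L, where Hmr1 had 15.9% and the hybrid had 93 reads. The hybrid thus resembled Hmr1 in where these reads were placed. A sequence with 1 hit on the build can lie elsewhere or at several places in the D. mauritiana genome, which was not tested.

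Most single-hit Gypsy_I-int reads placed on the X matched flamenco (lncRNA:flam, X:21631891-21790731). There Gypsy_I-int had 463 hybrid, 104 Hmr1 and 32 D. mauritiana reads, with all of them on the plus strand but 2 in D. mauritiana. Within it, the gypsy fragment at X:21767873-21771089 stood at 2534 single-hit reads per 1000000 for the hybrid, 233 for Hmr1 and 240 for D. mauritiana. Gypsy5 in flamenco had 89, 20 and 0 reads. At the Gypsy5 copy outside it, on X:11195438-11201368, single-hit reads stood at 22866, 1879 and 2027 per 1000000, which is 12.2-fold (11.3 to 13.1) over Hmr1 and 11.3-fold (9.97 to 12.8) over D. mauritiana.

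Among sites of the build near the centromere of 3L, the hybrid did not have the gypsy reads of D. mauritiana at each one. At 3L:26511906-26516828, D. mauritiana had 152 single-hit reads, and the hybrid and Hmr1 had 2 each. The share in the hybrid was 0.00996 (0.00120 to 0.0366) of that in D. mauritiana. At 3L:26144124-26146747 the counts were 89 for D. mauritiana, 1 for the hybrid and 0 for Hmr1. Between these sites, at 3L:26151076-26154617, the hybrid had 83 single-hit reads, Hmr1 12 and D. mauritiana 76. There the hybrid stood at 0.827 (0.598 to 1.14) of D. mauritiana, an interval that includes 1, and 17.3-fold (9.42 to 34.9) over Hmr1. None of these 3 sites overlaps an annotated gene. Over all reads listed at this middle site, 615 hybrid reads were antisense and 0 sense, against 153 and 0 for Hmr1 and 361 and 30 for D. mauritiana.

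**Figure D5:**
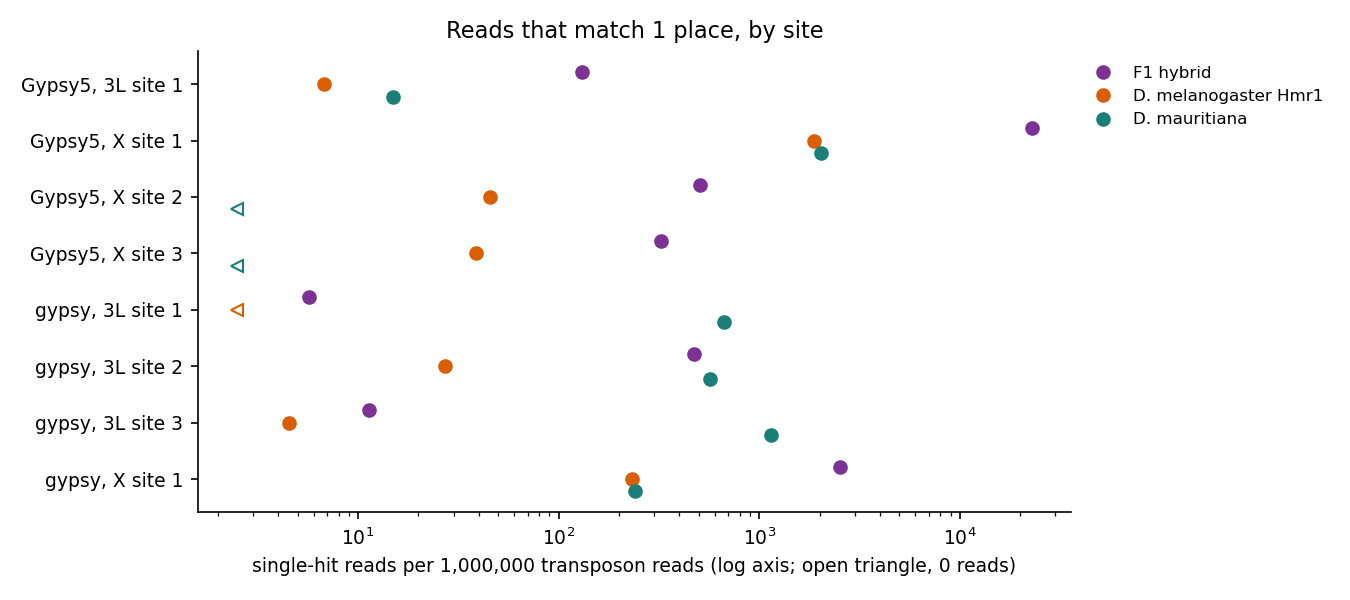
Reads with 1 hit on build dm6 per 1000000 transposon reads (log axis), at sites with at least 20 such reads in a library. Sites are numbered along each chromosome, and open triangles mark 0 reads. The hybrid lies highest at 5 of the 8 sites, D. mauritiana lies highest at the other 3, all gypsy sites on 3L, and gypsy 3L sites 1 and 3 hold 1 and 2 reads in the hybrid.

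Counted over hybrid sequences, the overlap was larger with Hmr1 for the 5 repeats together and nearly equal with each parent for Gypsy10_I-int. Of the 11283 hybrid sequences of the 5 repeats, 1534 (13.6%) were also read in Hmr1 alone, 479 (4.25%) in D. mauritiana alone, 237 (2.10%) in both and 9033 (80.1%) in neither. Of the Gypsy_I-int sequences of Hmr1, 43.8% were also read in the hybrid, against 14.3% of those of D. mauritiana. For Gypsy5_I-int the shares were 50.6% and 46.7%, and for Gypsy10_I-int 49.3% and 34.8%. Of the hybrid sequences of Gypsy10_I-int, 192 (9.97%) were also read in Hmr1 alone and 186 (9.66%) in D. mauritiana alone. These shares move with depth and with the number of D. mauritiana sequences that match the D. melanogaster build, and their part in the difference was not tested. Over all repeats, 201578 distinct sequences were read in Hmr1 and 65642 in D. mauritiana. The same overlap was not counted over all repeats, so it cannot be called particular to these elements.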

How the data were processed

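Small RNAs of testes were measured in 1 library each of the hybrid, Hmr1 and D. mauritiana. The authors' deposited table gives read counts per distinct sequence of 23 to 30 nt, not scaled, with how often it hits the genome, the place of 1 hit and a repeat name. Per the submitters' processing notes, cutadapt 1.8.1, Bowtie 1.2.2 and Bowtie 0.12.7 were used with the genome build dm6. Settings and the mismatches allowed are not given in the sources used here. Listed sequences disagreed at 2 of 49934 positions they cover, so reads from diverged D. mauritiana copies may have been lost or named as another element.

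Counts were summed per repeat and divided by the total of transposon reads. Shares have Clopper-Pearson intervals, counts Poisson intervals and ratios conditional binomial intervals, at 95%. For log2 ratios 1 read was added as a pseudocount, and the background held repeats that reached 100 reads in a library of the pair. Orientation came from sequences joined by shared stretches of 15 nt and from sites where the longest open frame had at least 200 codons. Gene positions came from the RefSeq gene table of the same build. Python 3.11.15, numpy 2.4.6, scipy 1.17.1 and pandas 2.3.3 were used, and the procedures were tested on simulated data. The members, the gypsy-type list and the like repeats (the 3 nearest per internal part) were chosen with earlier results of these data known. The 84 value columns of tables on vasa-related repeats were not used.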

Additional observations from a re-analysis of the deposited data

How the results depend on the processing

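No paired analysis was possible because each group had 1 library, and no library could be left out. Summed over the 5 repeats, the log2 ratio of the hybrid to Hmr1 (3.38) was 3.23 with single-hit sequences, 2.35 with each sequence counted once, 3.30 at 24 to 28 nt, 3.16 scaled by the median of ratios, 4.73 over reads outside the LTR/Gypsy class and 3.24 with reads divided by genomic hits. The ratio to D. mauritiana (1.96) was 1.90, 1.27, 2.12 and 3.14 with single-hit sequences, each sequence once, the median of ratios and reads outside the class. Hmr1 to D. mauritiana (-1.42) was -1.33, -1.09, -1.03, -1.60 and, divided by hits, -1.29. Repeats at least 2-fold higher in the hybrid than in D. mauritiana were 1 with single-hit sequences, 2 with each sequence once and 3 divided by hits, in place of 5, and 1 of the 5 lay above both parents with single-hit sequences. Repeats at least 2-fold higher in Hmr1 than in D. mauritiana were 1 in place of 0 with each sequence once, at 24 to 28 nt, with the median of ratios and without the most abundant sequences. Signs changed for the hybrid over D. mauritiana with single-hit sequences (Gypsy_I-int -0.21, Gypsy_LTR -0.41) and for Hmr1 over D. mauritiana in Gypsy_LTR (-2.08 with single-hit sequences, -0.040 divided by hits) and Gypsy5_I-int (0.16 with the median of ratios). The cause was not tested. Joining by 12 nt raised the minor strand of Gypsy5 to 10.1% (hybrid), 11.3% (Hmr1) and 11.7% (D. mauritiana), with 7 contradictory joins, as many as with 15 nt. In all, 73 values of single repeats, of the background and of base, length, strand and ping-pong measures moved without a change of sign, those on the 12 nt joins included, and 132 stayed within counting error. Counts under 100 reads, as for Gypsy_LTR in D. mauritiana, limit the precision.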
